A study of Mus musculus with 47 samples.

Results

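The genes described here are 10 of the 37325 genes named on a mouse expression array, and encode the apolipoproteins Apoa1, Apoa2, Apoa4, Apoa5, Apob, Apoc2, Apoc3 and Apoe, the assembly factor Mttp and the plasma enzyme Lcat. Every array probe carrying 1 of these gene names was taken, which gave 18 probes. The rule uses names only, and the names were picked with earlier results of these data known. Liver RNA of 47 mice was labelled with Cy3 and hybridized on 47 1-color arrays. The mice fell into 8 groups by sex (M or F), *Pxr* genotype (PxrWT, here *Pxr*+/+, or PxrKO, here *Pxr*-/-) and treatment (CTRL or ATB). There were 6 mice a group, and 5 in that of *Pxr*-/- CTRL males. PXR, encoded by *Nr1i2*, is a nuclear receptor that senses bile acids, steroids and drugs in liver and gut. The deletion was present in the whole body and not in hepatocytes alone. Both genotypes were C57BL/6J littermates from *Pxr*+/- parents and lived apart by sex and genotype from 5 weeks of age. At 6 months, the ATB mice drank water holding vancomycin at 0.5 g/L and ampicillin and neomycin at 1 g/L each for 2 weeks, and the CTRL mice drank tap water. All livers were taken at 6 h after lights on. The study's methods give 2 cages a group, and the cage of a given mouse is not given in the sources used here, so mice of a group may share a cage effect.

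Lipoproteins carry triglyceride and cholesterol through the blood in particles coated with apolipoproteins. In hepatocytes Mttp, the microsomal triglyceride transfer protein, loads lipid onto Apob as it enters the endoplasmic reticulum, which starts a very low density lipoprotein (VLDL), while Apoa1 and Apoa2 form high density lipoprotein (HDL). In plasma Apoc2 activates lipoprotein lipase, Apoc3 restrains it, Apoe leads remnants to hepatic receptors, and Lcat esterifies the cholesterol of HDL. The liver is the main source of most of these mRNAs, whereas Apoa1, Apoa4 and Apob are also made in the intestine. Apoa1, Apoc3, Apoa4 and Apoa5 lie next to each other on mouse chromosome 9 (GRCm38.p6, chr9:46228630-46271921), and Apoe and Apoc2 lie at chr7:19671579-19701310.

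A level below is the log2 of a spot's median brightness after normalization of all arrays, and a difference is a difference of 2 mean levels, so 1 unit is a doubling. A gene is given by its brightest probe. A difference was called when the limma test had an adjusted p of at most 0.05 (Benjamini-Hochberg over all 32980 probes tested) and the fold change was above 1.2. Levels of different genes come from different probes and cannot be ranked. In bulk liver, fewer cells of a type and less RNA per cell cannot be told apart.

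Between 31090 and 34477 of 56605 gene probes were well above background on each array, and no spot was saturated. The arrays came from 6 slides and 3 wash batches of 23, 16 and 8 arrays. The batch of 8 arrays held a single mouse of each group, so a difference within it sets a single mouse against another. All 10 genes were measured: 17 of their 18 probes passed the filter on dim probes, and the other, a dim Mttp probe, was well above background on 9 arrays. CrossNorm, as run here after the study's method, left shifts of the whole array between groups: the median of all probes was 0.20, 0.03, 0.12 and 0.18 lower in males than in females (in *Pxr*+/+ CTRL, *Pxr*+/+ ATB, *Pxr*-/- CTRL and *Pxr*-/- ATB mice, respectively). On the authors' processed values these shifts were -0.09, -0.01, -0.05 and -0.08. Differences are therefore also given less this median. The setting called the background-subtracted signal below is the scanner's processed signal less each array's 75th percentile. It thus differs in background and in scaling, and which step moved a value was not tested. Hepatocyte markers (14 genes) were well above background on all 47 arrays, with a mean level between 16.7 and 17.3. The probe of the deleted gene *Nr1i2* gave levels of 11.23 to 12.40 (median 11.83, n = 24) in *Pxr*+/+ and of 10.36 to 11.89 (median 11.44, n = 23) in *Pxr*-/- mice. The ranges overlapped. Whether this probe lies in the deleted stretch is not given in the sources used here, so it does not check the genotypes.

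Shown here are 4 of the probes described below, with their mm9 positions as the array files give them. Each is 60 bases long and lies on the mRNA strand.

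Lcat (chr8:108463523-108463582, minus strand): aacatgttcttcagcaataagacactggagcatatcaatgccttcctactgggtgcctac

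Apoa4 (chr9:46051206-46051266, plus strand): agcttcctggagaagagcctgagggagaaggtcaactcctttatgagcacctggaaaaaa

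Apoc3, dimmer probe (chr9:46041353-46041412, minus strand): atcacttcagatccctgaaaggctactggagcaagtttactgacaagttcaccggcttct

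Apoa5, dimmer probe (chr9:46078579-46078638, plus strand): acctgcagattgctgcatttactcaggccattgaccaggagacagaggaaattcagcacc

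The genes differed in how much they varied between mice of the same group. The within-group SD of the level was 0.389 for Apoa4, which was larger than that of 94.8% of the 1301 probes of similar brightness. It was 0.065 for Apoe, 0.0665 for Apoa2 and 0.0905 for Apoc3, against a median of 0.191 over all probes tested. Bright probes vary less on this array, and within their own brightness class Apoe, Apoa2 and Apoc3 had a larger SD than 40.6%, 46.9% and 28.4% of probes. Apoa4 therefore stood out for its spread among probes of its brightness, and the 3 apolipoproteins with these bright probes did not stand out for their constancy.

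**Figure D1:**
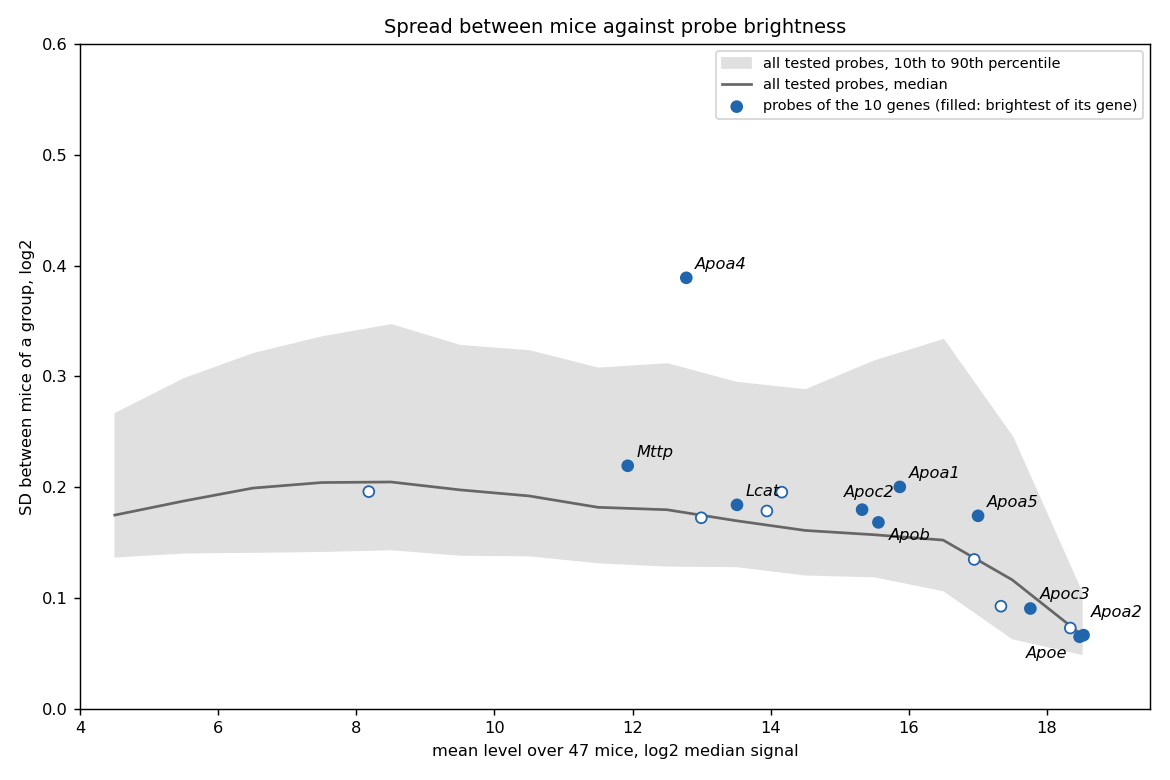
SD of the level between mice of a group (vertical axis, log2 units) against mean level over 47 mice (horizontal axis, log2 signal) for the tested probes of the 10 genes, with the 10th to 90th percentile of all tested probes as a grey band. Apoa4, at an SD of 0.389, is the point above the band.

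**Figure D2:**
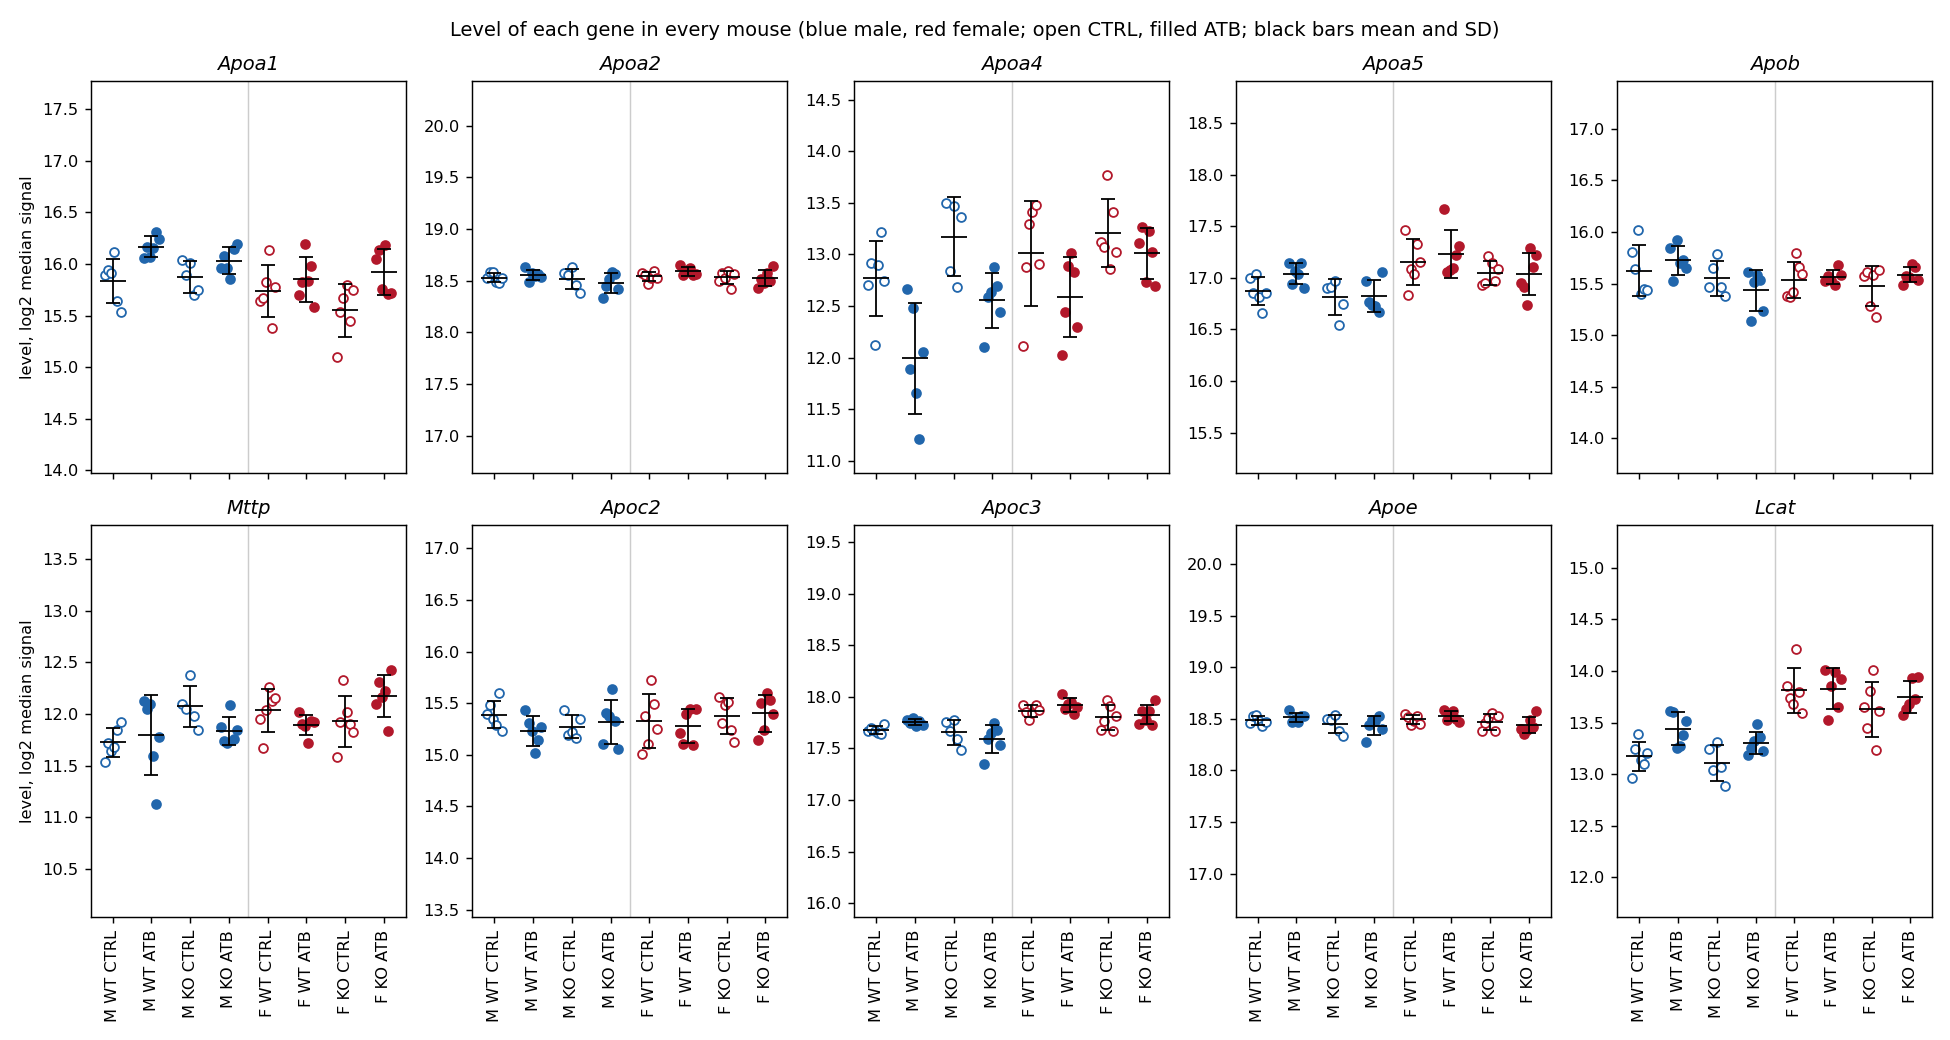
Level (log2 signal) of each of the 10 genes in every mouse, with the mean ± SD of each of the 8 groups. Males are blue and females red, CTRL open and ATB filled, and every panel spans the same number of log2 units. Lcat is lower in males in both genotypes and treatments, Apoa4 is scattered and lowest in *Pxr*+/+ ATB males, and Apoa2 and Apoe are nearly flat.

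Lcat mRNA was lower in males than in females in all 4 strata, by 1.31- to 1.56-fold. Lcat is the enzyme that converts the free cholesterol of HDL to cholesteryl ester. In *Pxr*+/+ CTRL mice its level ran from 12.96 over a median of 13.17 to 13.39 in males, and from 13.60 over 13.77 to 14.21 in females (n = 6 each). Under ATB the *Pxr*+/+ males ran from 13.25 over 13.45 to 13.61 and the females from 13.53 over 13.89 to 14.01. The 5 *Pxr*-/- CTRL males were at 12.89, 13.04, 13.07, 13.25 and 13.32, and the females ran from 13.24 over 13.63 to 14.01. Every male was thus below every female in the *Pxr*+/+ CTRL stratum, and the sexes overlapped in the next 2 strata. In *Pxr*-/- ATB mice the males ran from 13.19 over 13.29 to 13.49 and the females from 13.57 over 13.71 to 13.94, again with no overlap.

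The fitted differences, male less female, were -0.64 ± 0.11 (SE; adjusted p 2e-05) in *Pxr*+/+ CTRL, -0.39 ± 0.11 (adjusted p 0.0133) in *Pxr*+/+ ATB, -0.52 ± 0.12 (adjusted p 0.00137) in *Pxr*-/- CTRL and -0.44 ± 0.11 (adjusted p 0.00252) in *Pxr*-/- ATB mice. Less the median of all probes they were -0.44, -0.35, -0.39 and -0.27, all below 0. Within single wash batches the difference was below 0 in 12 of 12 values, from -0.89 to -0.26. These values were not taken less the median of all probes, and those of the smallest batch compare single mice. The mean of the 4 differences, a contrast added after the data were seen, was -0.50 ± 0.055 (adjusted p 5.6e-10), where 23.6% of all genes were called lower in males. Of 15 settings, the call was lost in *Pxr*-/- ATB mice on the background-subtracted signal (-0.18, adjusted p 0.195) and in *Pxr*-/- CTRL mice when the fit held the compared groups alone (-0.51, adjusted p 0.0505). It was kept in all 4 strata without each of the 47 mice in turn. Lcat has 1 tested probe and no saturated spot, so the settings on probe choice and saturation could not move its values.

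Over the 10 genes and 4 strata, 6 of 40 sex differences were called, all lower in males: 4 of Lcat, 1 of Apoa5 and 1 of Mttp. Of all 21878 genes tested, each by its brightest probe, 30%, 9.06%, 13.7% and 23.3% were called lower in males in the 4 strata (in the order given above), and 2.17%, 3.44%, 2.44% and 2.53% were called higher. With quantile normalization, which leaves next to no median shift, 8.37%, 8.25%, 6.26% and 6.36% were called lower and 7.01%, 6.35%, 6.03% and 6.78% higher. On the background-subtracted signal 8.26%, 8.82%, 6.41% and 6.36% were called lower and 9.63%, 7.97%, 8.14% and 8.96% higher. Of the 10 genes 2, 1, 1 and 2 were called lower, a share near the background of the normalization used here. The split of the calls depended on the scaling: with quantile normalization, normexp background correction or the authors' processed values the 6 calls were 4 of Lcat, lower in males, and 2 of Apoa1, higher in males, and on the background-subtracted signal 10 were called, 3 lower (all Lcat) and 7 higher. Their median sex difference was -0.10, -0.07, -0.03 and -0.18, against -0.20, -0.04, -0.13 and -0.17 over all genes.

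**Figure D3:**
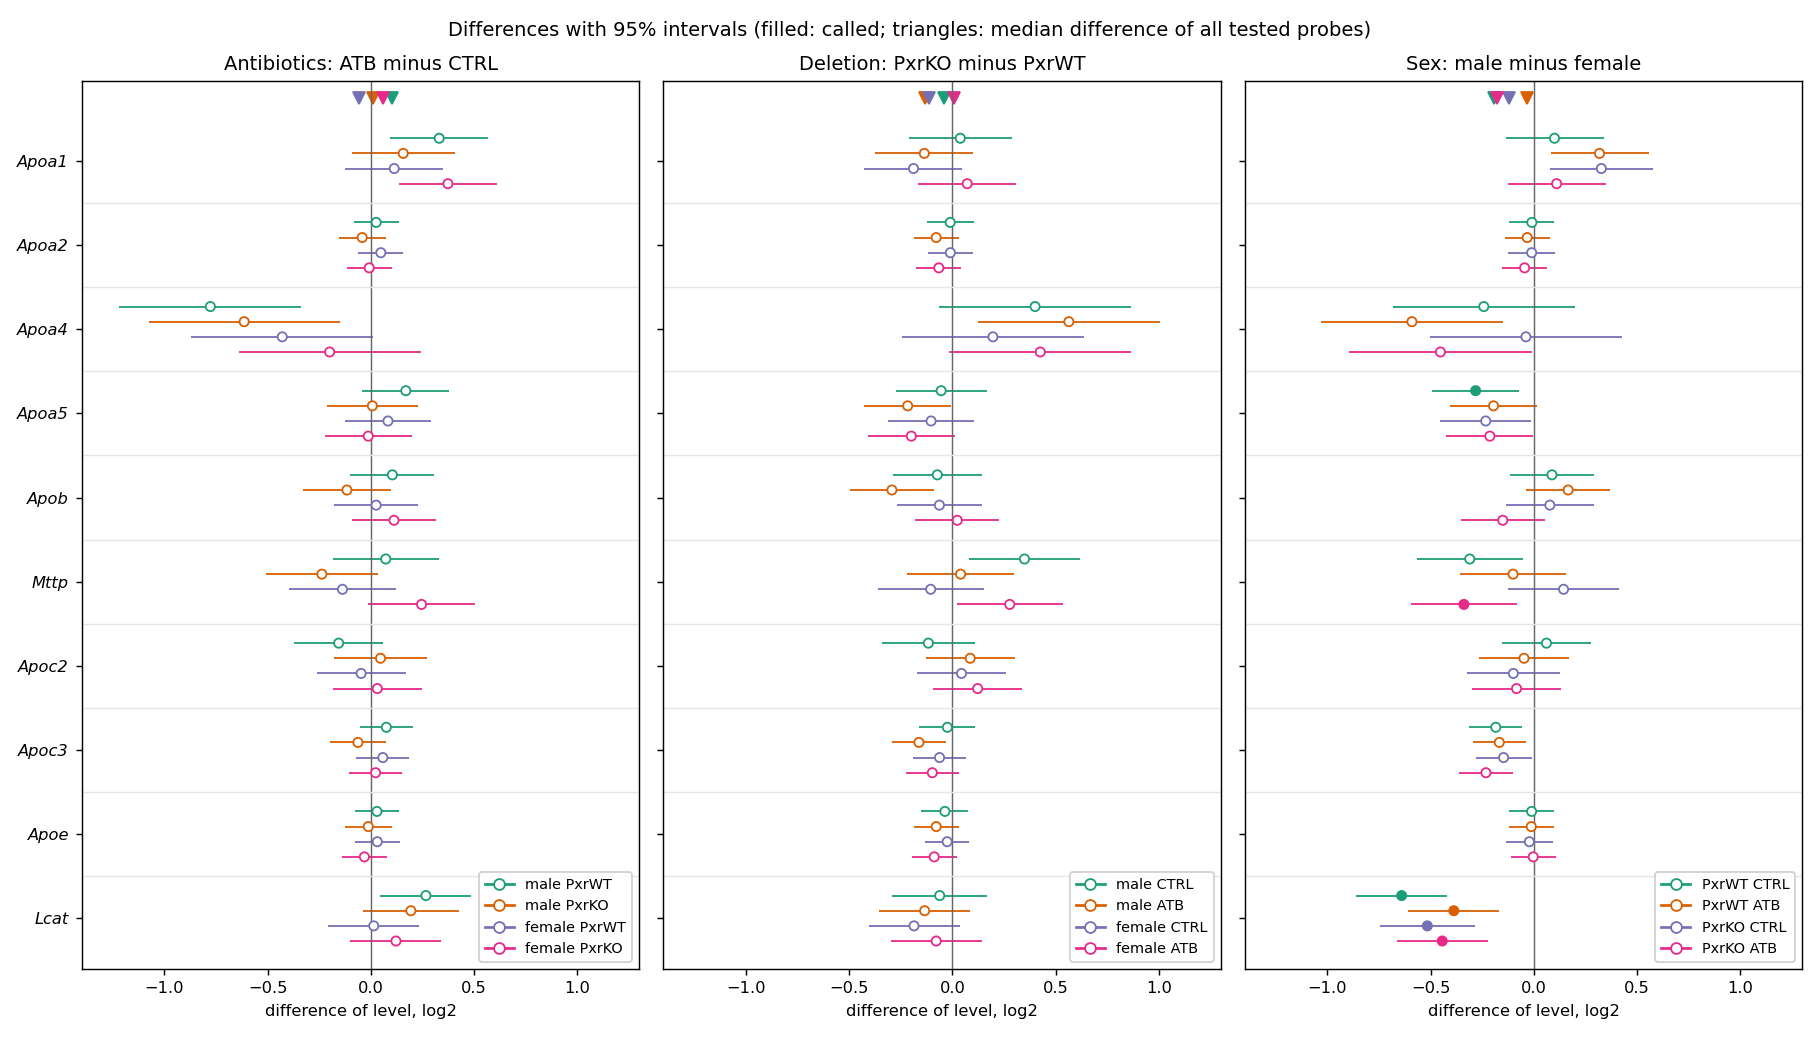
Difference of the mean level (log2 units, horizontal axis) with its 95% interval for each of the 10 genes in the 4 ATB, 4 deletion and 4 sex contrasts. Filled symbols were called, and triangles mark the median of all probes. The filled symbols are the 4 of Lcat, 1 of Apoa5 and 1 of Mttp, all in sex contrasts.

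Apoc3, the inhibitor of triglyceride clearance, and Apoa5, which promotes it, were each called lower in males on 1 or more probes, by less than Lcat, and both changed sign in some strata on the background-subtracted signal. On the dimmer Apoc3 probe printed above, *Pxr*+/+ CTRL males ran from 16.82 over 16.85 to 16.93 and females from 17.02 over 17.18 to 17.30 (n = 6 each). The groups did not overlap. Its difference was -0.32 ± 0.08 (adjusted p 0.00416) in *Pxr*+/+ CTRL, -0.28 ± 0.08 (adjusted p 0.0231) in *Pxr*+/+ ATB and -0.42 ± 0.08 (adjusted p 0.000226) in *Pxr*-/- ATB mice, all called and without overlap, and -0.26 (adjusted p 0.0428, fold change 1.19) in *Pxr*-/- CTRL mice. Less the median of all probes the 3 called differences were -0.12, -0.24 and -0.25. The brightest Apoc3 probe moved the same way but by less, from -0.23 to -0.15 with every fold change under 1.2, so it was not called. In *Pxr*+/+ CTRL mice it was at -0.18, against -0.20 for the median of all probes. Its differences were -0.17, -0.20, -0.13 and -0.20 with quantile normalization and 0.13, -0.08, 0.04 and -0.0083 on the background-subtracted signal. The 2 bright Apoc3 probes followed each other between mice of a group (r = 0.88), and the remaining, very dim one, at a mean level of 8.18, gave differences between -0.02 and 0.21.

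Apoa5 was called in *Pxr*+/+ CTRL mice. The 6 males ran from 16.66 over 16.85 to 17.04 and the 6 females from 16.84 over 17.12 to 17.47, so the sexes overlapped, and the difference was -0.28 ± 0.10 (adjusted p 0.0329). Less the median of all probes it was -0.09, and on the background-subtracted signal it was 0.02, so its direction depends on the scaling. It also lost the call without any 1 of 5 mice: *Pxr*+/+ CTRL females 1 and 5 and *Pxr*+/+ CTRL males 4, 5 and 6. The other strata gave -0.20, -0.23 and -0.21, where the median of all probes was -0.03, -0.12 and -0.18. Within wash batches 12 of 12 values were below 0, but they were not taken less that median. The dimmer Apoa5 probe fell by 0.40 in *Pxr*+/+ CTRL males (adjusted p 0.00669) and by 0.39 in *Pxr*-/- ATB males (adjusted p 0.0115) relative to females, or by 0.21 in both strata less the median of all probes.

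Mttp, the lipid transfer protein that VLDL assembly requires, was called in *Pxr*-/- ATB mice (-0.34 ± 0.13, adjusted p 0.0419). The males there ran from 11.71 over 11.80 to 12.09 and the females from 11.84 over 12.19 to 12.43, with overlap. Less the median of all probes this was -0.16, and the call held in 9 of 15 settings and was lost without any 1 of 9 mice. The other strata gave -0.31 (adjusted p 0.054), -0.10 and 0.14, so the sign was not the same throughout.

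Apoa1, the main protein of HDL, had higher mean levels in males in all 4 strata. In *Pxr*-/- CTRL mice the 5 males were at 15.70, 15.74, 15.89, 16.01 and 16.04 and the females ran from 15.10 over 15.60 to 15.80. The differences were 0.10, 0.32 (adjusted p 0.0722), 0.33 (adjusted p 0.0657) and 0.11 in the 4 strata and did not pass the threshold. Less the median of all probes they were 0.30, 0.35, 0.45 and 0.29. With quantile normalization Apoa1 was called higher in males in *Pxr*+/+ ATB (0.34, adjusted p 0.042) and *Pxr*-/- CTRL mice (0.46, adjusted p 0.00896). The same strata were called with normexp (0.34 and 0.45), on the authors' processed values (0.33 and 0.42) and on the background-subtracted signal (0.39 and 0.51), the last of which also called *Pxr*+/+ CTRL mice (0.39, adjusted p 0.0325). The mean of the 4 differences was 0.21 (adjusted p 0.00252), a fold change of 1.16 and so under the fold threshold. It was called with quantile normalization (0.33, adjusted p 1.84e-05, where 7.67% of all genes were called higher), on the background-subtracted signal (0.42, adjusted p 2.76e-06), with normexp (0.32, adjusted p 3.53e-05) and on the authors' processed values (0.29, adjusted p 0.000113).

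ATB changed none of the 10 genes past the threshold in any 1 stratum (0 of 40 by limma, 5 of 40 at an unadjusted p under 0.05), and the gene that came closest was Apoa4. Among all genes tested 1.07%, 0.11%, 0.0137% and 0.0274% were called in *Pxr*+/+ males, *Pxr*-/- males, *Pxr*+/+ females and *Pxr*-/- females. Apoa4, a lipid-responsive apolipoprotein of intestine and liver, ran from 12.13 over a median of 12.82 to 13.22 in *Pxr*+/+ CTRL males and from 11.21 over 11.97 to 12.67 in *Pxr*+/+ ATB males. The 5 *Pxr*-/- CTRL males were at 12.68, 12.84, 13.36, 13.47 and 13.50, and the ATB males ran from 12.10 over 12.61 to 12.88. *Pxr*+/+ females ran from 12.11 over 13.10 to 13.47 on CTRL and from 12.03 over 12.64 to 13.01 on ATB. *Pxr*-/- females ran from 12.86 over 13.09 to 13.77 on CTRL and from 12.69 over 13.07 to 13.26 on ATB. The treated and control ranges overlapped in all 4 strata, while the mean was lower under ATB in each.

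The Apoa4 differences, ATB less CTRL, were -0.78 ± 0.22 (adjusted p 0.0643) in *Pxr*+/+ males, -0.61 ± 0.23 (adjusted p 0.621) in *Pxr*-/- males, -0.43 ± 0.22 (adjusted p 0.494) in *Pxr*+/+ females and -0.20 ± 0.22 (adjusted p 0.776) in *Pxr*-/- females. In *Pxr*+/+ males the call was made under 4 of the other settings: quantile normalization (-0.90, adjusted p 0.0289, with 0.777% of all genes called lower), the background-subtracted signal (-0.93, adjusted p 0.0245), normexp background correction (-0.91, adjusted p 0.0253) and the authors' processed values (-0.86, adjusted p 0.0343). It was also made without *Pxr*+/+ CTRL male 3, *Pxr*+/+ ATB male 1 or *Pxr*+/+ CTRL female 1. Averaged over the 4 strata, in a contrast added after the data were seen, Apoa4 fell under ATB by 1.42-fold (-0.50 ± 0.11, 95% interval -0.73 to -0.28, adjusted p 0.00389), where 0.864% of all genes were called lower. That call was made under all 15 settings (-0.55 to -0.50) and without each of the 47 mice in turn (-0.55 to -0.46). Apoa4 has 1 tested probe, no spot was saturated and the mean uses all 8 groups. The settings on probe choice, saturation and compared groups therefore could not move this value. Within wash batches, 11 of 12 values were below 0. The exception was 0.21, in *Pxr*-/- females of the batch of 8 arrays, where single mice are compared.

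Apoa4 moved the other way with the deletion. *Pxr*-/- less *Pxr*+/+ it was 0.40 ± 0.23 in CTRL males, 0.56 ± 0.22 in ATB males, 0.20 ± 0.22 in CTRL females and 0.43 ± 0.22 in ATB females, with adjusted p from 0.14 to 1. The mean of the 4 was 0.40 ± 0.11 (1.32-fold, adjusted p 0.019), where 0.686% of all genes were called higher. It held in 14 of 15 settings and without each mouse in turn, and was lost without the batch of 8 arrays (0.36, adjusted p 0.0792). Here too, the settings on probe choice, saturation and compared groups could not move the value. The ATB and deletion contrasts share groups, so they are not separate observations. The mean sex difference of Apoa4 was -0.33 ± 0.11 (adjusted p 0.0106) and was not called under quantile normalization (-0.19), on the background-subtracted signal (-0.13), with normexp (-0.20) or on the authors' values (-0.25). The lowest group mean was 11.99 (*Pxr*+/+ ATB males) and the highest 13.21 (*Pxr*-/- CTRL females), next to 13.17 in *Pxr*-/- CTRL males, and groups next to each other in this order overlapped.

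**Figure D4:**
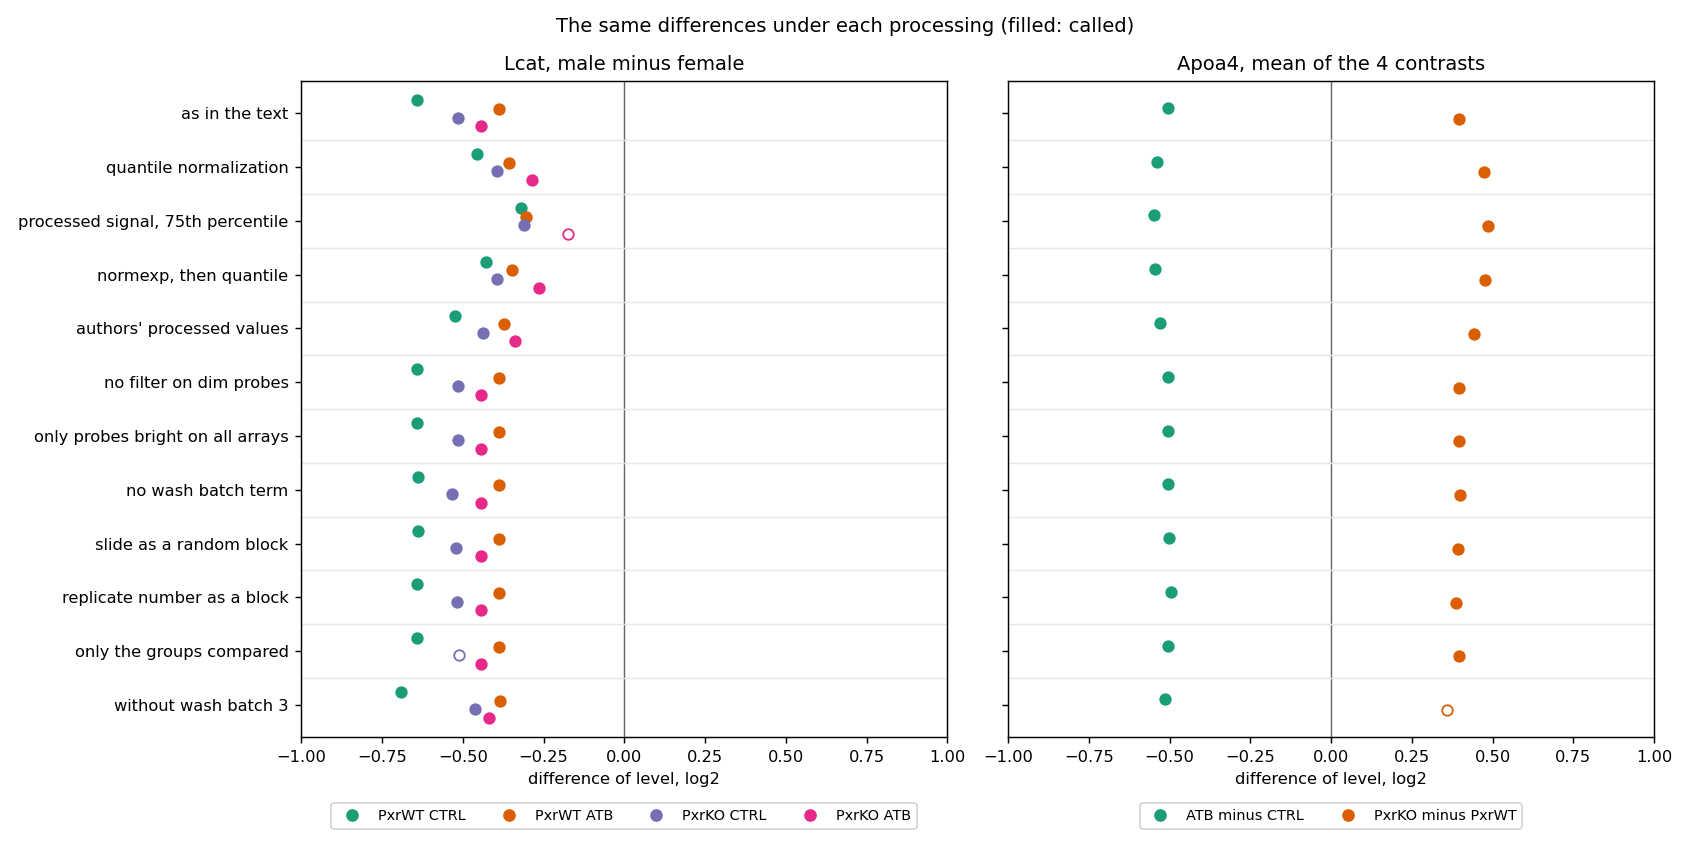
Log2 difference of Lcat between males and females in the 4 strata, and mean ATB and deletion difference of Apoa4, each under 12 settings of the processing, with filled symbols where the difference was called. Lcat stays below 0 throughout, Apoa4 stays near -0.50 for ATB, and its deletion difference stays above 0 and is not called without the batch of 8 arrays.

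The other members moved little under ATB. Apoa1 was higher by 0.33 (adjusted p 0.133), 0.16, 0.11 and 0.37 (adjusted p 0.169) in the 4 strata and was above 0 in 11 of 12 values within wash batches. The mean of 0.24 ± 0.06 had an adjusted p of 0.00986 and a fold change of 1.18, under the fold threshold. Lcat was 0.27 higher in *Pxr*+/+ ATB males (adjusted p 0.192) and 0.15 higher on average (adjusted p 0.103). Over the 10 genes the median of the mean ATB difference was 0.01, against 0.03 over all genes.

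The deletion changed none of the 10 genes in any 1 stratum (0 of 40 by limma, 6 of 40 at an unadjusted p under 0.05), where 0.187%, 0.937%, 3.25% and 0.215% of all genes were called in CTRL males, ATB males, CTRL females and ATB females. Apob, the structural protein of VLDL, was 0.29 lower in *Pxr*-/- ATB males (adjusted p 0.111), or 0.16 lower less the median of all probes. Mttp was 0.35 higher in *Pxr*-/- CTRL males (adjusted p 0.891) and 0.28 higher in *Pxr*-/- ATB females (adjusted p 0.954). Apoe, the ligand of remnant receptors, did not differ on its brightest probe, but its dimmer probe was called lower in *Pxr*-/- ATB males (-0.27 ± 0.06, adjusted p 0.0301), where *Pxr*+/+ males ran from 17.39 to 17.48 and *Pxr*-/- males from 17.05 to 17.25. Less the median of all probes this was -0.14. The same probe gave -0.13 in CTRL males, -0.22 (adjusted p 0.0478, fold change 1.17) in CTRL females and -0.11 in ATB females, and the brightest Apoe probe gave -0.09 to -0.03 in the 4 strata.

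Apoa2, the other structural protein of HDL, and Apoe gave the narrowest limits on the normalization used here. No Apoa2 difference exceeded 0.08 in size in any of the 12 contrasts, and its intervals ran about 0.11 to either side. In *Pxr*+/+ CTRL mice the 95% interval of the sex difference was -0.12 to 0.10 for Apoa2 and for Apoe. This depended on the processing. On the background-subtracted signal, taken less each array's 75th percentile, both were called higher in males in that stratum (0.28, adjusted p 0.00212, and 0.26, adjusted p 0.00283). Apob (0.36) and Apoc2 (0.32) were called higher there too. Apoc2, the lipase activator, stayed between -0.16 and 0.12 and Apob between -0.29 and 0.17 in the 12 contrasts. Between mice of a group, Apoa2 and Apoe levels rose and fell together (r = 0.90), as did Apoa2 and Apoc3 (r = 0.84) and Apoc3 and Apoe (r = 0.83). The points are 47 mice, and bright probes on the same array share its labelling and normalization.

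None of the 60 differences between effects (ATB by genotype, ATB by sex, deletion by sex) was called by limma, and 4 had an unadjusted p under 0.05: 3 of Mttp and 1 of Apob, with adjusted p of 0.474 or more. Of all genes, between 0% and 0.0411% were called in the 6 tests (0.0183%, 0%, 0.0411%, 0.00457%, 0.0229% and 0.0411%, in the order ATB by genotype in males and females, ATB by sex in *Pxr*+/+ and *Pxr*-/- mice, and deletion by sex in CTRL and ATB mice). The largest of these was for Mttp, whose ATB effect in *Pxr*-/- mice was 0.48 lower in males than in females. For Apoa4 the ATB difference of *Pxr*+/+ mice less that of *Pxr*-/- mice was -0.16 (95% interval -0.80 to 0.48) for males and -0.23 (95% interval -0.85 to 0.39) for females. The ATB difference of males less that of females was -0.35 (95% interval -0.97 to 0.28) with PXR present and -0.41 (95% interval -1.05 to 0.23) without it.

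The genes whose levels followed Apoa4 most closely over the 47 mice were 2 noncoding RNA probes and 3 coding genes. The closest was a probe for a long intergenic RNA on chromosome 19 (mm9 chr19:5845052-5845111, r = 0.88, and 0.78 after the group means were removed). It was followed by a predicted noncoding RNA at mm9 chr7:46529270-46529329 (r = 0.74, within groups 0.52), Dio1, the deiodinase that activates thyroid hormone (r = 0.72, within groups 0.57), Lrfn3 (r = 0.70, within groups 0.65) and Acot11, an acyl-CoA thioesterase (r = 0.70, within groups 0.45). These are descriptions of the likeness of profiles that share arrays and groups.

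The promoter windows of Apoa1 and Apoa4 are shown because, among the members with a window, they alone hold the hexamer AGTTCA, of which PXR with its partner RXR binds a pair. Each is the 250 bases before the start in RefSeq (GRCm38.p6), 5′ to 3′ on the gene's strand, with the hexamer, read on either strand, in capitals.

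Apoa1 (chr9:46228380-46228629): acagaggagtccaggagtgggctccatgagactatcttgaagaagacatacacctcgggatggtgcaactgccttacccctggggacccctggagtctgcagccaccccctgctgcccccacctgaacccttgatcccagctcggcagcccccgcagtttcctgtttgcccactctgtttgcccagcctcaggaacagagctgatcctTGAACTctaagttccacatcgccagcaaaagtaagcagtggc

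Apoa4 (chr9:46240594-46240843): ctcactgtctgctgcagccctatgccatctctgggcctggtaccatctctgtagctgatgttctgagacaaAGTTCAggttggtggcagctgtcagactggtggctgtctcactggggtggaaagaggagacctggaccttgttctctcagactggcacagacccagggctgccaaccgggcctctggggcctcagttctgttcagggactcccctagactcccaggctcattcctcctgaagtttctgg

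The hexamer begins 42 bases before the Apoa1 start (minus strand) and 179 bases before the Apoa4 start. It was in 2 of 13 windows of 9 members (Apoc3 had no window) and in 11.8% of all 32851 windows. TATAAA was in 5 of the 13 windows and in 12.4% of all. The 5 include overlapping Apoa5 windows that hold the same site. The HNF4A repeat CAAAGTCCA and the STAT5 palindrome TTCNNNGAA were in 0 of the 13, and in 0.384% and 7.02% of all windows. Both strands were read. A match is a string of letters and no evidence of binding.

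Most calls among other genes of lipoprotein handling, as among all genes, were between the sexes. Of 82 other genes tested in lists of apolipoproteins, assembly helpers, lipases, receptors, cholesterol efflux and transcription factors, 96 differences were called over the 12 contrasts, of which 89 were between the sexes (77 lower and 12 higher in males). Sex contrasts held 92.7% of the list calls and 93.7% of the calls over all genes. In them 23.5% of the list differences were called lower and 3.66% higher in males, against 19% and 2.64% over all genes. Among the remaining apolipoproteins and their companions, Pon1, an HDL-borne esterase, was lower in males in 4 of 4 strata (-0.64 to -0.42) and remained so with quantile normalization. Apof and Pon3 were called in 3 strata (2 with quantile normalization), Apom and Apobr in 2 (1) and Apod and Apon in 1 (0), all lower in males. Among the assembly helpers, Tm6sf2, which lipidates VLDL, was lower in males in 4 of 4 strata, with a mean difference of -1.14 (adjusted p 3.32e-20). Ces3a, a lipase of the endoplasmic reticulum, and Sort1, a sorting receptor that binds Apob, were higher in males in 4 of 4 (0.81 to 1.06 and 0.46 to 0.89), and these 3 were called in all 4 strata with quantile normalization too. Cidec was called higher in 1 stratum (1 with quantile normalization), Plin2 lower in 2 (1) and Mia3 and Ces1d lower in 1 (0).

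Among receptors, Vldlr, which takes up triglyceride-rich lipoproteins, was lower in males (-3.81 to -2.36), as was Sdc1, a proteoglycan that binds remnants (-0.72 to -0.53), both in 4 of 4 strata under both normalizations. Lrp1, Lrpap1 and Stab1 were called lower in 3 strata (0, 0 and 1 with quantile normalization), Lsr in 2 (1), and Scarb1 and Stab2 in 1 (0 and 1). Hepatic lipase, Lipc, was lower in 4 strata (-0.69 to -0.43) and in 3 with quantile normalization, and Lipg and Pltp were lower in 1 and in 0. Of the cholesterol genes, Abcg5 and Npc2 were called lower in 4 strata (2 and 3 with quantile normalization), Soat1 in 3 (3) and Abcg1, Abcg8, Soat2 and Npc1 in 1 (1, 1, 1 and 0). Of the transcription factors, Nr2f1 was called lower in 2 strata (1 with quantile normalization), Cebpa higher in 2 (2) and Foxo1 lower in 1 (1). Hnf4a, Ppara, Ppargc1a, Nr1h3, Nr1h4 and Nr5a2 were called lower in 1 stratum and in 0 with quantile normalization. The normalization used here left the median of all probes lower in males, as given above.

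Averaged over 4 strata, ATB raised Abcg5 (0.47, adjusted p 0.000398) and Abcg8 (0.46, adjusted p 0.000407), the biliary sterol exporter, and Scarb1, the HDL receptor (0.30, adjusted p 0.00663). These averages were added after the data were seen and were not followed under the other settings. In single strata ATB gave 1 call in the lists, Scarb1 higher in *Pxr*+/+ males, kept in 9 of 15 settings. Over the 4 strata 0.305% of list differences were called higher, against 0.246% over all genes. The deletion, averaged likewise, raised Ces1d (0.40, adjusted p 0.0052) and lowered Sort1, Gpihbp1, Sdc1, Stab2 and Abcg1 (-0.37 to -0.28). The median of all probes was -0.07 in that contrast. In single strata 6 list differences were called for the deletion, all lower and all in CTRL females, where that median was -0.11. Sdc1, Stab2 and Abcg1 were among them. Over the 4 strata 1.83% of list differences were called lower, against 0.934% over all genes. Sinusoidal endothelial cells express Stab2 and Gpihbp1, and macrophages Abcg1. In the same averaged contrast 10 of 15 macrophage and 5 of 10 endothelial markers were called lower in *Pxr*-/- mice, and their part in these values was not tested. The share of all genes called lower in that contrast and the counts of other cell types are not reported here. These counts are therefore not set against a background.

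Some markers of other liver cells were also called lower in males. In the 4 strata these were 14, 9, 8 and 0 of 15 macrophage markers and 7, 1, 1 and 0 of 10 endothelial markers. They were 8, 3, 1 and 7 of 10 stellate cell markers and 6, 0, 2 and 2 of 14 hepatocyte markers. Of all genes, 30%, 9.06%, 13.7% and 23.3% were called lower. The endothelial and hepatocyte counts after the first stratum and the last macrophage count were near or below that share. The mean level of 14 macrophage markers was 11.1 to 11.9 in *Pxr*+/+ CTRL females and 9.28 to 11.66 in all other groups. The part of these cells in the sex differences was not tested. Of the 8 enterocyte markers 3 were tested: Fabp2, Vil1 and Anpep, well above background on 47, 42 and 47 arrays. The others were well above background on few arrays: Slc15a1 on 14, Alpi and Cdx2 on 2 each, Sis on 1 and Lct on 0. The mean of the 3 tested markers was between 10.8 and 11.8 in every group. Their median ATB difference was 0.07, 0.0039, -0.05 and 0.44 in *Pxr*+/+ males, *Pxr*-/- males, *Pxr*+/+ females and *Pxr*-/- females, and their median deletion difference was 0.04, 0.0057, 0.08 and 0.35 in CTRL males, ATB males, CTRL females and ATB females. Their part in the Apoa4 values was not tested.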

How the data were processed

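Liver RNA of 47 mice was read on 47 Agilent mouse arrays. The authors' scanner software (Agilent Feature Extraction 10.10.1.1, per the file headers) wrote, for each spot, a linear intensity: the median and mean signal, the local background and a processed signal. The authors also deposited processed log2 values, which they had filtered, corrected for wash batch and normalized with CrossNorm, and these served as an alternative. Groups came from the sample titles.

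Here log2 of the median signal was taken, 422 non-uniform spot values were left out and spots of a probe were averaged. A probe was tested when 5 or more arrays of any group read it well above background (32980 probes of 21878 genes). The wash batch was removed with group means kept, and CrossNorm was run over 300 random stacks of 1 array per group. limma 3.58.1 (R 4.3.3, data.table version 1.17.8) was fitted to the 8 groups and the wash batch, and differences were called at an adjusted p of 0.05 and a fold change above 1.2. Alternatives were quantile normalization, the background-subtracted processed signal less each array's 75th percentile, normexp (offset 50) and the authors' values. Others were filters, batch, block, probe and sample choices, and each mouse left out. The dimmest probe, the fit without wash batch 3 and the means of 4 contrasts were added after the data were seen. The fit was tested on simulated data. Python 3.11.15, pandas 2.3.3 and matplotlib 3.10.9 handled sequences and figures.

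All 10 members are named, with list genes called where a member was called and the 5 genes most like the most variable member; a few list genes are counted but not reported by name here. Members and lists were chosen with earlier results of these data known. The number of arrays limits the precision.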

Additional observations from a re-analysis of the deposited data

How the results depend on the processing

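The alternatives were followed for 28 differences of Apoa4, Apoa1, Lcat, Apoa5 and Mttp, those called or described for ATB or the deletion. Of their 420 values, 391 kept their direction and their side of the threshold, 18 lost and 4 gained the threshold, and 7 changed sign. Of 1439 values of the other list genes, 1189 kept both, 250 lost the threshold and 0 changed sign. The count of ATB calls among the members was 0 and rose to 1 (Apoa4 in *Pxr*+/+ males) under quantile normalization, the background-subtracted signal, normexp and the authors' processed values. The count of deletion calls was 0 and rose to 1 with the dimmest probe of each gene (Apoe). The 6 sex calls became 10 on the background-subtracted signal, 7 of them higher in males (3 of Apoa1 and 1 each of Apoa2, Apob, Apoc2 and Apoe). With each mouse left out in turn, ATB calls ranged from 0 to 1, deletion calls from 0 to 0, sex calls from 5 to 7, calls of differences between effects from 0 to 0 and calls in the other lists from 86 to 103.

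Over all 120 differences of the 10 genes, called or not, the sign differed in 40 on the background-subtracted signal (1 of them a called one), 20 with normexp, 18 with quantile normalization and 13 with the dimmest probe. Among the 28 followed, the 7 values that changed sign belonged to Apoa5 and Apoa1. The Apoa5 sex difference in *Pxr*+/+ CTRL mice became 0.0177 on the background-subtracted signal. The mean deletion difference of Apoa1 (-0.05) became 0.0079 with quantile normalization, 0.0268 on the background-subtracted signal and 0.0152 with normexp. Its deletion difference in ATB males (-0.14) became 0.0279 on the background-subtracted signal and 0.0019 with normexp, and that in ATB females (0.07) became -0.0342 without wash batch 3. After the change of sign none of these values was called, with adjusted p by limma of 0.875 or more. The Apoa5 difference had been called in the main fit (-0.28, adjusted p 0.0329). The cause of the changes was not tested. The share of list calls that were lower was 86.5% (83 of 96), 48 of 64 with quantile normalization, 52.9% of 70 on the background-subtracted signal, 73.4% of 64 with normexp and 81.7% of 82 on the authors' values.

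With the replicate number as a block, the counts were 0 for ATB, 0 for the deletion, 6 for sex, 0 for differences between effects and 92 for the lists. Once wash batch and group means were removed, mice with the same number did not deviate together (median r -0.05 over 161 pairs, 34 of them above 0.1). The numbers largely followed the wash batches, so these correlations cannot show whether the numbers carry a batch. No spot was saturated, so both saturation settings left the values as they were. The settings on probe choice could not move Apoa1, Apoa4, Lcat and Mttp either, which had 1 tested probe each.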
